A study of Homo sapiens with 3 samples.

Results

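The mitotic cells of Kelly cultures were taken as the 15% of cells with the highest mitotic score in each library, 2705 of 18034 cells in all. The score was the summed UMIs (distinct RNA molecules counted by molecular identifiers) of 10 genes, CCNB1, CDC20, PLK1, HMMR, CENPE, CENPA, AURKA, DLGAP5, PSRC1 and CCNB2, per 10000 UMIs of a cell. A barcode was a cell at 5000 UMIs or more, 500 detected genes or more and at most 20% mitochondrially encoded UMIs. This gave 812 mitotic cells of 5415 in the sensitive library, 943 of 6288 in the intermediate resistant library and 950 of 6331 in the fully resistant library. The 15% was set by the rule, so that the number of mitotic cells in a library is no finding.

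Kelly is an established cell line from a human neuroblastoma whose MYCN gene is amplified and whose ALK gene carries an activating mutation, and TAE684 is an inhibitor of the ALK kinase. Sensitive cells were kept in the vehicle DMSO, intermediate resistant cells in 500 nM TAE684 and fully resistant cells in 1 µM TAE684. All 3 cultures grew in RPMI-1640 with antibiotics and 10% serum (fetal bovine) and were dissociated with trypsin at about 70% confluence. Each state gave 1 droplet library, so resistance, the drug present in the medium and differences between cultures or libraries cannot be told apart. No test was made for the same reason, and each interval below is a 95% interval for counting error alone. The cells carried 95119772, 102449567 and 106163582 UMIs in the sensitive, intermediate resistant and fully resistant libraries, or 94.8%, 94.4% and 93.98% of each library's UMIs. Between 38 and 62 cell barcodes were shared by any pair of libraries, 0.604% to 1.14% of a library's cells.

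In the cell cycle, cyclin-dependent kinase 1 (CDK1) bound to A-type and B-type cyclins drives the entry into mitosis, in which chromosomes condense, the spindle forms and the kinetochores attach to microtubules. The spindle assembly checkpoint holds the anaphase-promoting complex until every kinetochore is attached, and the complex then marks securin and cyclin B for destruction so that the chromatids separate. RNA of most of these genes accumulates through G2 phase, before mitosis itself, under activators that include B-MYB and FOXM1, and transcription is largely shut off on condensed chromosomes. Cells with high RNA of the score genes can therefore be in late G2 or in mitosis, and RNA counts alone do not separate the phases.

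The promoters of the score genes are shown because their late cell cycle expression is known to run through paired elements, a CCAAT box read by NF-Y and, near the start site, the cell cycle genes homology region (CHR) read by the DREAM and B-MYB complexes. Each line gives 150 bases upstream of the start (RefSeq, GRCh38.p14), with the letters of a CCAAT box or of a CHR in capitals on either strand.
CCNB2 (chr15:59104996-59105145, plus strand): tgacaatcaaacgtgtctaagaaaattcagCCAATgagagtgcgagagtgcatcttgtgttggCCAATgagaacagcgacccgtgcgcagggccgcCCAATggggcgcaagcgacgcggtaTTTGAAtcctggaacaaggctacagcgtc
CDC20 (chr1:43358831-43358980, plus strand): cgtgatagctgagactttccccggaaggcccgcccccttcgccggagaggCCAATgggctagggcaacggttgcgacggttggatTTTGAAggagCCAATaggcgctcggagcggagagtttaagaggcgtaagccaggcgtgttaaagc
PLK1 (chr16:23678739-23678888, plus strand): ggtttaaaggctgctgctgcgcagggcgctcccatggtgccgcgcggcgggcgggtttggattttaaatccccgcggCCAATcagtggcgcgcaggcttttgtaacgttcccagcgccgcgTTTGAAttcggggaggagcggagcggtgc
HMMR (chr5:163460482-163460631, plus strand): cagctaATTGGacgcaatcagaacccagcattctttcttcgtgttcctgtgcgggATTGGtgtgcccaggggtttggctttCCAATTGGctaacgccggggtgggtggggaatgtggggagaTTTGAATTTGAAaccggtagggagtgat
PSRC1 (chr1:109283146-109283295, minus strand): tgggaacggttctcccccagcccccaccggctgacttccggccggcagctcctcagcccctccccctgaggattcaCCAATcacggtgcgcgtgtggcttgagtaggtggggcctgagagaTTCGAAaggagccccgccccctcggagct
CENPE (chr4:103198344-103198493, minus strand): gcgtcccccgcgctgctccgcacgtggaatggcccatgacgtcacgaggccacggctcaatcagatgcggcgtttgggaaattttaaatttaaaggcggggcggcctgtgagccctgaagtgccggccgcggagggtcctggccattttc

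In CCNB2, the B-type cyclin, 3 CCAAT boxes stand upstream of a CHR, and in PLK1, the mitotic Polo kinase, 1 of each is present. The sequence of CENPE, a kinetochore motor, is shown as the exception with the searched letters of neither. Of the 10 score genes 9 had a promoter in the RefSeq table, and the letters CCAAT (either strand, 250 bases before the start) were in 8 of the 9 and TTTGAA or TTCGAA (either strand) in 7 of the 9. The promoter of CCNB1 held CCAAT and no CHR letters. Among all 35116 promoters in the table the shares were 32.0% with CCAAT, 14.3% with CHR letters and 5.05% with both. Of the 215 genes outside the score that were higher in mitotic cells in all 3 libraries (below), 180 were matched to 244 promoters, and 57.8% held CCAAT, 34.8% CHR letters and 27.0% both. Among the 7255 promoters of genes at a CPM (UMIs scaled to a common total per sum of cells) of at least 20 in a library, 34.9% held CCAAT, 10.7% CHR letters and 4.45% both. The 38 promoters of the S phase list held CCAAT in 63.2% and CHR letters in 13.2%, so CCAAT letters were also frequent there. GGGCGG, the GC box (either strand), was in 9 of the 9 score gene promoters, in 69.3% of those of the 215 genes and in 76.3% of those of the S phase list. It was in 65.3% of the promoters of all genes at that level and in 42.6% of all promoters in the table. The coordinates are those of the sequence table, while the counts were made on hg19. A match describes letters in a window and no binding was measured.

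The values that chose the cells were as follows. The lowest score of a mitotic cell was 10.635, 10.6061 and 19.1029 in the sensitive, intermediate resistant and fully resistant libraries, and the highest score in the rest was 10.615, 10.605 and 19.0822. The limit therefore cut a continuous distribution and stood higher in the fully resistant library. Median scores were 17.3, 21.6 and 28.3 in mitotic cells of the 3 libraries in that order, against 2.08, 1.41 and 1.78 in the rest. After each cell was thinned to 5000 UMIs, the median mitotic cell had UMIs of 5, 6 and 7 of the 10 score genes, and the median cell of the rest had UMIs of 1 in each library. Mitotic cells also carried slightly more UMIs, with a median of 18341.5, 16960 and 17655.5 UMIs against 15863, 15582 and 15941 in the rest, which are ratios of 1.16, 1.09 and 1.11. Cells with over 2 times the library's median UMIs, among which doublets may stand, were 8.25%, 3.82% and 3.58% of mitotic cells and 5.30%, 1.76% and 1.75% of the rest.

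With cells ranked by score in 20 bins of 5%, the 164 other mitotic genes (10 lists, named below, without the score genes and the tubulins) were also highest in the cells of the highest scores. Their summed CPM was 18240.4, 19849 and 24884 in the first bin inside the limit in the sensitive, intermediate resistant and fully resistant libraries, against 16087, 16369.5 and 21455 in the last bin outside. The limit fell on a slope, and the sum reached 25458, 30622 and 31708 in the top bin. HIST1H4C (ENSG00000197061), which encodes a histone H4 made in S phase, was lowest in the top bin: its CPM was 170.5, 199.6 and 94.7 in the top bin, against 1952, 3160.3 and 3627 in the bin at 65% to 70%. Cells of equal score were ordered by UMIs. The lowest bin therefore held the shallowest of the cells with no UMI of a score gene, with a median of 9415 to 9999 UMIs. The cells of the second bin also had no such UMI, and their median was 14194.5, 13693 and 14281 UMIs in the same libraries.

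**Figure D1:**
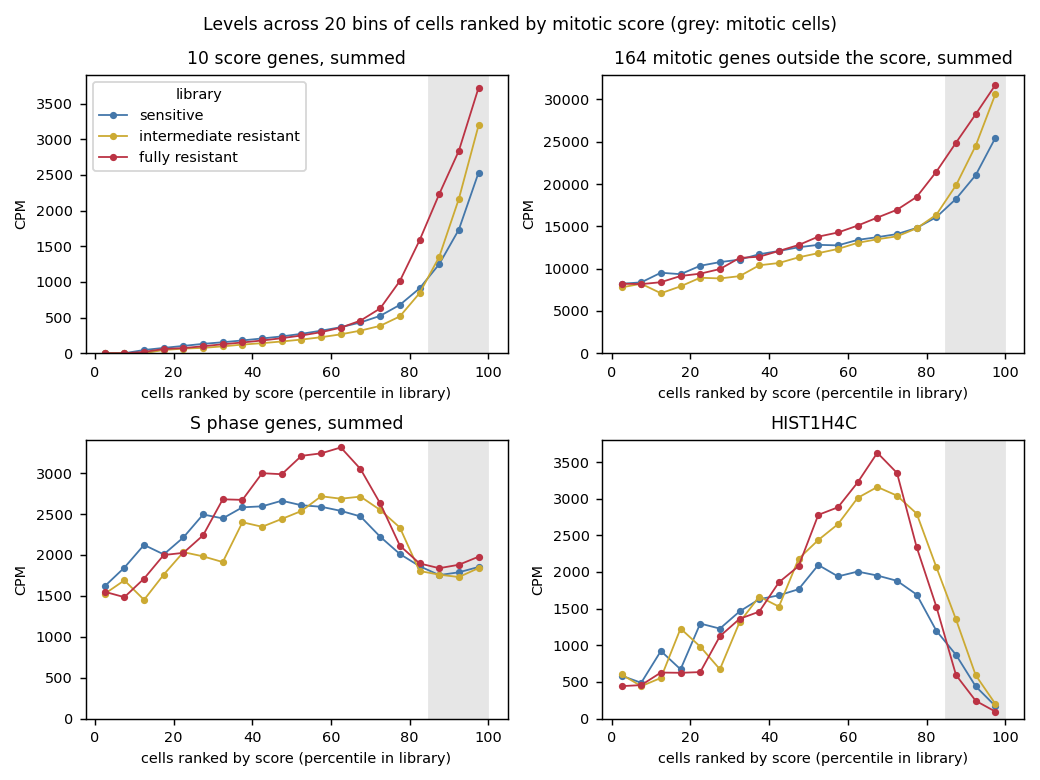
Summed CPM of the 10 score genes, of 164 mitotic genes outside the score and of the S phase genes, and CPM of HIST1H4C (y axes), in 20 bins of cells ranked by score (x axis, percentile within a library; lines are the 3 libraries, grey marks the mitotic cells). The mitotic genes are highest in the top bin, at 25458, 30622 and 31708 CPM of the sensitive, intermediate resistant and fully resistant libraries, and HIST1H4C is highest in the middle bins and lowest in the top bin.

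The label was set against markers outside the score. All 11 of CDK1, CCNA2, TOP2A, UBE2C, TPX2, AURKB, BUB1, NUSAP1, KIF20A, PRC1 and CENPF were at least 1.5-fold higher in mitotic cells than in the rest in every library. Of all genes at a CPM of at least 5, 5.78%, 13.2% and 10.4% were so in the sensitive, intermediate resistant and fully resistant libraries. At least 1.5-fold lower were 1.39%, 2.36% and 4.04% in the same order. The 11 markers are known to follow the score genes, so they are not independent of the rule. TPX2, which activates Aurora A at the spindle, had a CPM of 281, 361 and 582 in mitotic cells of the sensitive, intermediate resistant and fully resistant libraries, against 91.6, 72.4 and 144 in the rest. The smallest log2 ratio of the 11 was that of AURKB, the chromosomal passenger kinase, in the sensitive library (1.13). Of 6 markers of replicating cells, MCM5 and GINS2 were at least 1.5-fold lower in mitotic cells in all 3 libraries, PCNA and MCM2 in the fully resistant library only, and TYMS and RRM2 in none. TYMS, thymidylate synthase, was at 210.3, 276 and 435 CPM in mitotic cells, against 191, 221 and 348 in the rest. MKI67, the proliferation marker Ki-67, had 336, 329 and 298 CPM in mitotic cells and 108, 76.8 and 91.4 in the rest. Each of 12 neuroblastoma markers was measured in every library. Immune, endothelial and erythroid markers (10, 6 and 7 genes) summed to at most 3.03 CPM in mitotic cells of any library, against at most 2.99 in the rest. In mitotic cells of the sensitive, intermediate resistant and fully resistant libraries, 6, 6 and 5 of the 10 immune markers had no UMI. These 3 lists do not stand for all other cell types: fibroblast and mesenchymal markers summed to 50.5, 54.7 and 36.7 CPM in mitotic cells of the same libraries, against 47.6, 46.1 and 40.5 in the rest.

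The score genes themselves are described without further reading, since they chose the cells. Their summed CPM was 1819, 2257 and 2936 in mitotic cells of the sensitive, intermediate resistant and fully resistant libraries, against 293, 211 and 342 in the rest, which gives ratios of 6.201 (6.09 to 6.31), 10.7 (10.51 to 10.9) and 8.57 (8.45 to 8.70). AURKA (ENSG00000087586), the centrosomal Aurora kinase, had 329, 405 and 704 CPM in mitotic cells and 44.1, 27.7 and 61.1 in the rest. PLK1 had 198, 232 and 245 CPM in mitotic cells, against 27.2, 15.9 and 23.2 in the rest, and CCNB1, the main B-type cyclin, 215, 282 and 384 against 33.5, 26.5 and 41.1. When the cells were chosen on a random part of each cell's UMIs, drawn with even odds, and levels were read from the other UMIs, the summed ratios were 5.52, 9.79 and 7.89, and single genes ranged from 3.77 (CCNB2) to 6.66 (AURKA) in the sensitive library. Both sets of UMIs come from the same cells, so they share what the cells share.

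Among all genes, 290 of 5184 tested (5.59%) were at least 1.5-fold higher in mitotic cells than in the rest of the sensitive library with a CPM in the higher of 20 or more, and 46 (0.887%) were lower. In the intermediate resistant library 645 of 5128 (12.6%) were higher and 78 (1.52%) lower, and in the fully resistant library 584 of 5321 (11%) were higher and 131 (2.46%) lower. The median log2 ratio of the tested genes was 0.11, 0.19 and 0.15, and ribosomal protein genes took a smaller share of UMIs in mitotic cells, with 34.3%, 34.6% and 29.2%, against 37.0%, 40.4% and 34.4% in the rest. TMM scaling, which set these medians to -0.08, -0.03 and 0.03, gave 169 higher and 112 lower genes in the sensitive, 307 and 239 in the intermediate resistant and 374 and 207 in the fully resistant library. The excess of higher over lower genes was thus smaller with that scaling. Higher in all 3 libraries were 225 genes, the 10 score genes and 215 others, which made up 77.6%, 34.9% and 38.5% of the genes higher in the sensitive, intermediate resistant and fully resistant libraries. Lower in all 3 were 30 genes. Of 4545 genes tested in all 3 libraries, none was at least 1.5-fold higher in mitotic cells of one library and at least 1.5-fold lower in those of another.

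Outside the score, the 12 genes with the highest mean ratio were SGOL2, GAS2L3, DEPDC1, NEK2, UBE2C, KIF14, ASPM, ARL6IP1, TTK, PIF1, KNSTRN and CDCA3. SGOL2 (ENSG00000163535), a shugoshin that protects centromeric cohesin, had 160.4, 173 and 209 CPM in mitotic cells of the sensitive, intermediate resistant and fully resistant libraries, against 22.1, 15.2 and 26.3 in the rest. Its ratios were 7.25 (6.82 to 7.72), 11.4 (10.7 to 12.2) and 7.94 (7.53 to 8.36). UBE2C (ENSG00000175063), the ubiquitin-conjugating enzyme of the anaphase-promoting complex, reached 629, 831 and 1604 CPM in mitotic cells, against 120.0, 92.5 and 217 in the rest, ratios of 5.24, 8.99 and 7.39. GAS2L3, which links actin and microtubules, had 41.9, 61.7 and 61.5 CPM in mitotic cells against 6.53, 5.85 and 6.60 in the rest. The ratios of the 12 ran from 4.37 (CDCA3) in the sensitive library to 11.4 (SGOL2) in the intermediate resistant one.

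**Figure D2:**
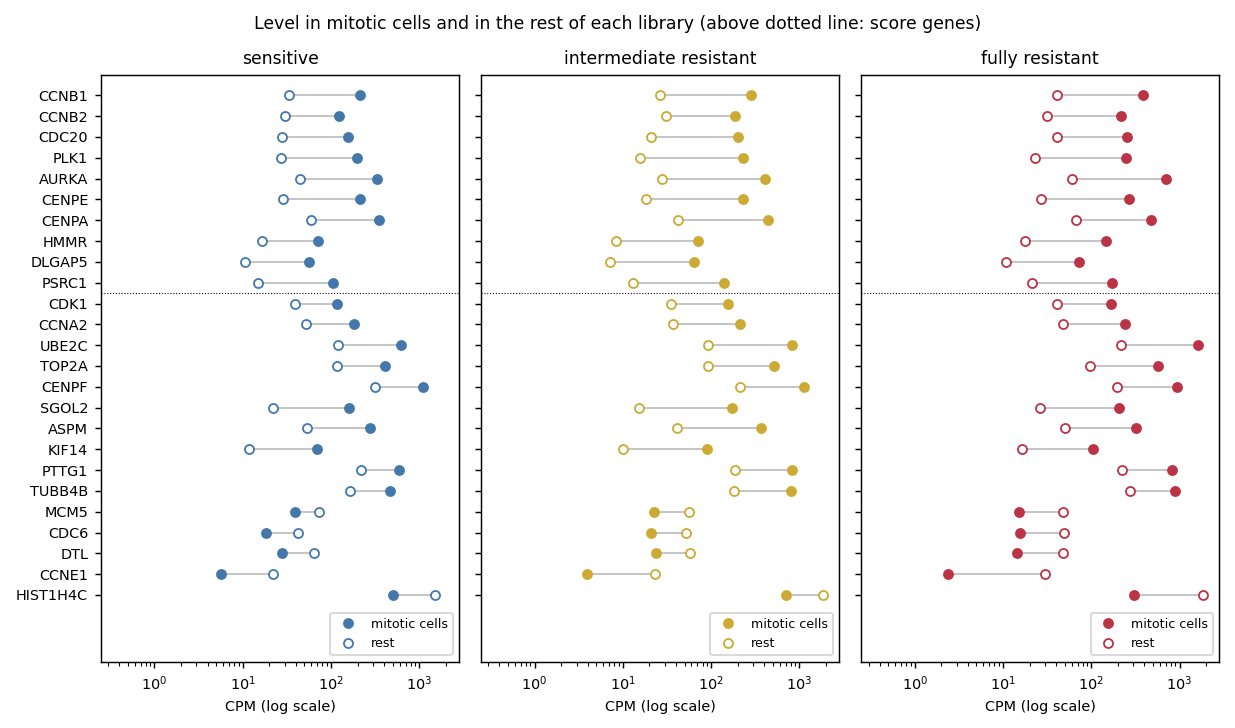
CPM of single genes (x axis, log scale) in mitotic cells (filled circles) and in the rest (open circles) of the 3 libraries (panels). Score genes stand above the dotted line and genes outside the score below it, among them UBE2C with 629, 831 and 1604 CPM in mitotic cells of the sensitive, intermediate resistant and fully resistant libraries, against 120.0, 92.5 and 217 in the rest, while MCM5, CDC6, DTL, CCNE1 and HIST1H4C lie lower in mitotic cells.

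The 164 mitotic genes outside the score were read against a background taken at a CPM of at least 5, at which 5.78%, 13.2% and 10.4% of all genes were at least 1.5-fold higher in mitotic cells of the sensitive, intermediate resistant and fully resistant libraries and 1.39%, 2.36% and 4.04% lower. Of the measured mitotic genes, 85 of 164, 100 of 163 and 97 of 164 were higher (51.8%, 61.3% and 59.1%) and 1, 1 and 2 lower. Their median log2 ratios were 0.63, 0.92 and 0.89, against 0.12, 0.19 and 0.14 over all genes measured. These genes are known to follow the score genes, so the counts describe how far each group of the machinery did so.

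For the kinase switch that starts mitosis, 12, 14 and 14 of 21 genes were higher in mitotic cells of the sensitive, intermediate resistant and fully resistant libraries. CDK1 (ENSG00000170312) had 118, 157 and 168 CPM in mitotic cells, against 39.0, 35.3 and 40.7 in the rest, ratios of 3.02 (2.85 to 3.20), 4.44 (4.22 to 4.68) and 4.14 (3.94 to 4.34). CCNA2, the A-type cyclin, had 184, 214 and 242 CPM in mitotic cells against 51.9, 36.8 and 48.2 in the rest. CDC25C, the phosphatase that activates CDK1, had ratios of 3.78, 5.99 and 6.05, and NEK2, a centrosomal kinase, 6.08, 9.59 and 6.56. CDC25A, the member that acts at the entry into S phase, had log2 ratios of -0.81, -0.60 and -0.98 and was lower in all 3 libraries. Of the transcriptional activators FOXM1 was higher in each library (log2 ratios of 0.72, 1.05 and 0.92) and MYBL2, which encodes B-MYB, passed the limit in none (-0.17, -0.10 and -0.32). CDC25A, FOXM1 and MYBL2 were singled out after their values were seen.

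Of the checkpoint and its target, 7, 6 and 7 of 12 spindle assembly checkpoint genes and 5, 6 and 5 of 19 genes of the anaphase-promoting complex list were higher in mitotic cells of the sensitive, intermediate resistant and fully resistant libraries, and none was lower. TTK, the kinase that starts checkpoint signalling, had 40.7, 46.2 and 63.7 CPM in mitotic cells, against 8.35, 6.64 and 8.26 in the rest. BUB1B had ratios of 3.36, 5.78 and 4.54 and MAD2L1, which binds CDC20 in the inhibitory complex, 2.02, 2.36 and 2.57. The anaphase-promoting complex list was uneven. Its median was 0.16, 0.34 and 0.41 on the log2 scale, while UBE2C, the subunit CDC27, the activator FZR1 and securin (PTTG1) were higher in every library. PTTG1 had 592, 824 and 831 CPM in mitotic cells, against 219.8, 186 and 220.3 in the rest. It has near-identical copies elsewhere in the genome, and how the counting treated their reads is not given in the sources used here.

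At the centromere, every one of the 6 genes of the chromosomal passenger list was higher in mitotic cells of each library, with median log2 ratios of 1.48, 1.90 and 1.74. CDCA8, the borealin subunit, had 114, 133 and 153 CPM in mitotic cells of the sensitive, intermediate resistant and fully resistant libraries, against 27.3, 20.9 and 28.3 in the rest, and the scaffold INCENP had 33.4, 37.2 and 46.3 against 11.98, 10.0 and 13.7. Of the kinetochore and centromere list 12, 19 and 18 genes were higher, of 32, 31 and 32 measured. NUF2 and NDC80, the microtubule-binding pair of the outer kinetochore, had ratios of 3.36, 5.72 and 5.53 and of 2.96, 4.90 and 4.79. CENPF had 1106, 1127 and 934 CPM in mitotic cells, against 317, 211 and 194 in the rest, and HJURP, the loader of CENP-A, ratios of 3.14, 4.09 and 3.49. The median log2 ratio of the kinetochore list was 0.38, 0.70 and 0.68, below that of the passenger list in each library.

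All 12 mitotic kinesins were higher in mitotic cells of every library, with median log2 ratios of 1.67, 2.25 and 2.11 in the sensitive, intermediate resistant and fully resistant libraries. KIF14 had 69.8, 89.99 and 104 CPM in mitotic cells, against 11.7, 10.1 and 16.5 in the rest, and KIF18A, which limits microtubule length at kinetochores, had ratios of 4.92, 8.02 and 6.88. Of the spindle assembly and centrosome list 19, 21 and 21 of 28 were higher. ASPM, a spindle pole protein, had 280.1, 364 and 322 CPM in mitotic cells, against 53.4, 40.8 and 50.8 in the rest. Of the cytokinesis list 8, 8 and 9 of 15 were higher, among them ECT2, which activates RHOA at the division plane, with ratios of 4.04, 6.13 and 4.54, and CEP55, with ratios of 4.13, 6.50 and 5.23. Among the tubulins 2, 3 and 2 of 9 measured were higher, and their median log2 ratio was 0.26, 0.31 and 0.26. Of the 2 that were higher in all 3 libraries, TUBB4B stood at 468, 799 and 889 CPM in mitotic cells, against 165, 179.5 and 272 in the rest, and TUBA1C had ratios of 2.15, 3.31 and 3.68. Tubulin genes are near-identical in their coding parts, and reads shared among them could have been split by the counting.

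In chromosome structure, 7, 9 and 8 of 11 genes of the condensin and compaction list were higher, against 4, 6 and 4 of 16 of the cohesin list, and none was lower. TOP2A (ENSG00000131747), the topoisomerase that untangles sister chromatids, had 413, 509.7 and 574 CPM in mitotic cells of the sensitive, intermediate resistant and fully resistant libraries, against 118, 91.3 and 97.5 in the rest. The condensin I subunit NCAPG had ratios of 2.66, 3.82 and 3.48, and KIF4A, a chromosome-bound motor, 3.35, 4.81 and 4.58. In the cohesin list ESPL1, the separase that opens cohesin, had ratios of 2.45, 3.85 and 3.50, the cohesin ring subunit RAD21 1.99, 2.71 and 2.33 and the loader NIPBL 1.53, 1.87 and 1.76. HMGB2, a chromatin protein, had 590.4, 904 and 791 CPM in mitotic cells against 276, 318 and 303 in the rest. Of 13 variant histone and high mobility group genes 3, 4 and 3 were higher.

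**Figure D3:**
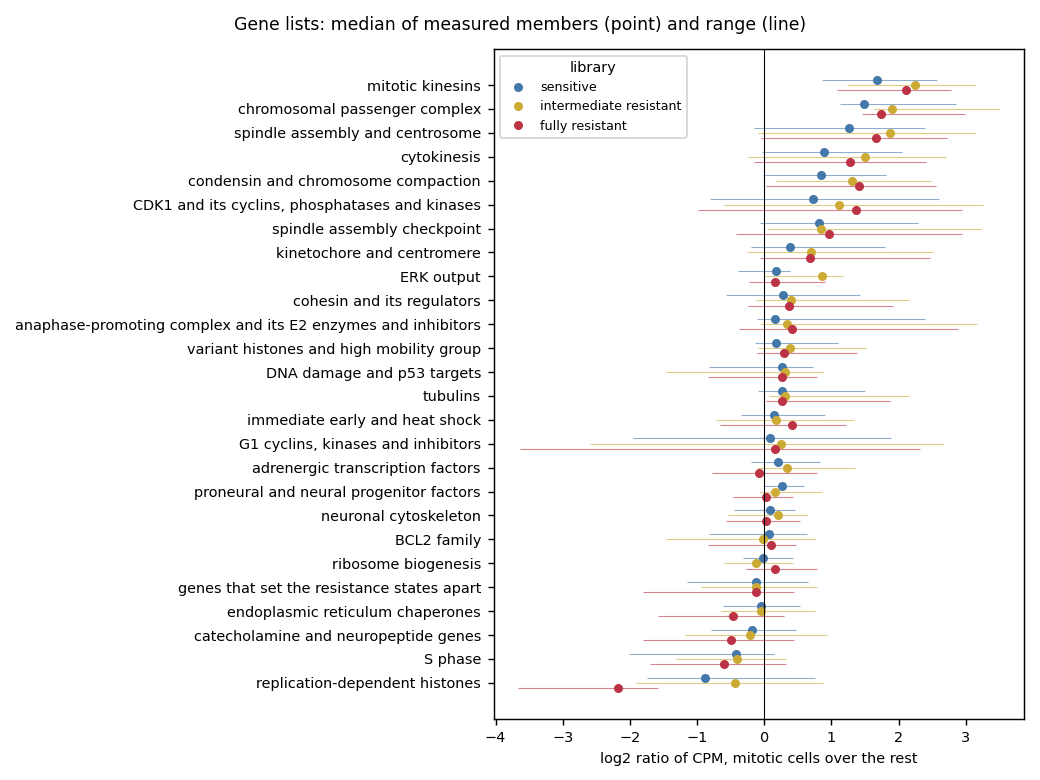
Median (points) and range (lines) of the log2 ratio of CPM in mitotic cells over the rest (x axis) for the measured genes of each list outside the score genes and the cell identity markers (y axis) in the 3 libraries (colours). Of the lists drawn, mitotic kinesins have the highest medians, 1.67, 2.25 and 2.11 in the sensitive, intermediate resistant and fully resistant libraries, and replication-dependent histones the lowest in each library, -0.89, -0.44 and -2.18. The last value is -1.52 with the score limit of the sensitive library.

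Genes of DNA replication were lower in mitotic cells or did not pass the limit. Of the S phase list none was higher and 16, 13 and 20 were lower in the sensitive, intermediate resistant and fully resistant libraries, of 38, 37 and 38 measured (background 1.39%, 2.36% and 4.04%). MCM5, a subunit of the replicative helicase, had 39.3, 22.8 and 15.2 CPM in mitotic cells, against 72.5, 55.7 and 48.4 in the rest, and was lower by factors of 1.85 (1.70 to 2.01), 2.44 (2.20 to 2.72) and 3.18 (2.81 to 3.61). CDC6, which loads the helicase, was lower by factors of 2.31, 2.45 and 3.15, and DTL, which marks licensing factors for destruction in S phase, by 2.30, 2.45 and 3.26. FEN1, CLSPN, UNG, SLBP and CDCA7 were also among the 12 genes with the lowest mean ratio, as was MSH6 of mismatch repair. Per cell the difference was small: the median was 9 UMIs of the list per 5000 in mitotic cells of each library and 11 in the rest. For the 164 mitotic genes the medians per 5000 UMIs were 103, 121 and 139 in mitotic cells, against 61, 58 and 64 in the rest. The rest held both lower and higher levels of the S phase list across the score bins. In the lowest bin the list summed to 1617, 1525 and 1550 CPM in the sensitive, intermediate resistant and fully resistant libraries. In the second bin, also without a UMI of a score gene, it summed to 1845, 1690 and 1484 CPM. The top bin had 1853, 1840 and 1978 CPM, and the list was highest in middle bins, at 2663, 2718 and 3315.

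Replication-dependent histone genes had the lowest medians of the lists, just below the S phase list in the intermediate resistant library. HIST1H4C had 503, 702 and 307 CPM in mitotic cells of the sensitive, intermediate resistant and fully resistant libraries, against 1491, 1834 and 1851 in the rest, and was lower by factors of 2.96 (2.90 to 3.03), 2.61 (2.56 to 2.66) and 6.03 (5.87 to 6.20). Of this list 7, 5 and 7 genes were lower, of 10, 11 and 7 measured, and 1 was higher in each of the sensitive and intermediate resistant libraries (HIST1H2BN, chosen after its values were seen). HIST1H1C, a linker histone, had 23.7, 31.9 and 8.66 CPM in mitotic cells, against 44.4, 57.7 and 36.0 in the rest. These mRNAs mostly lack a poly(A) tail and the libraries were made from polyA RNA, so the counts show only the part that was captured, and several of the genes are near-identical copies. The size in the fully resistant library depended on the limit. With the sensitive library's limit of 10.635 in every library, the log2 ratio of HIST1H4C in the fully resistant library was -1.35, against -2.59 with its own limit. The median of the histone list there was -1.52, against -2.18 with its own limit.

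Of the G1 list 5, 7 and 4 genes were higher and 3, 4 and 4 lower in the sensitive, intermediate resistant and fully resistant libraries, of 19, 18 and 19 measured (background 5.78%, 13.2% and 10.4% higher and 1.39%, 2.36% and 4.04% lower). CCNE1 (ENSG00000105173), the cyclin that drives entry into S phase, had 5.61, 3.88 and 2.39 CPM in mitotic cells, against 21.8, 23.4 and 29.7 in the rest, and was lower by factors of 3.88 (3.13 to 4.87), 6.04 (4.71 to 7.87) and 12.4 (9.14 to 17.2). E2F1, which activates S phase genes, was lower by factors of 1.93, 1.81 and 1.95. The higher genes included CDKN3, a CDK-associated phosphatase, and the CDK inhibitor CDKN1B, with ratios of 3.71, 6.38 and 4.99 and of 2.17, 2.96 and 1.93. CCND1, the G1 cyclin downstream of ERK signalling, had 218, 455 and 521 CPM in mitotic cells, against 188, 284 and 278 in the rest. It passed the limit in the resistant libraries only, with ratios of 1.60 (1.56 to 1.64) and 1.88 (1.83 to 1.92), against 1.16 (1.12 to 1.21) in the sensitive library, and the difference between libraries was not tested.

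Outside the cell cycle, the catecholamine and neuropeptide list held more lower than higher genes in mitotic cells. 2 of 15, 6 of 17 and 7 of 16 measured were lower in the sensitive, intermediate resistant and fully resistant libraries, and 0, 1 and 0 were higher (background 5.78%, 13.2% and 10.4% higher and 1.39%, 2.36% and 4.04% lower). The median log2 ratio was -0.19, -0.22 and -0.49. TH, the rate-limiting enzyme of catecholamine synthesis, had 33.8, 189.5 and 131 CPM in mitotic cells, against 48.0, 311 and 259 in the rest. DBH, which makes noradrenaline, had 110.3, 383 and 201 CPM in mitotic cells and 161, 652 and 415 in the rest, and was lower by factors of 1.46 (1.39 to 1.54), 1.70 (1.66 to 1.75) and 2.06 (1.99 to 2.14). SCG5, a secretory granule chaperone, was lower by factors of 1.68, 2.26 and 1.80. SST, somatostatin, showed little difference, with ratios of 1.10, 1.12 and 1.05.

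Endoplasmic reticulum chaperone genes were lower in 1, 2 and 6 of 17 and higher in 0, 1 and 0 in the sensitive, intermediate resistant and fully resistant libraries, where 1.39%, 2.36% and 4.04% of all genes were lower and 5.78%, 13.2% and 10.4% higher. The list had median log2 ratios of -0.05, -0.04 and -0.47. SDF2L1 had 166, 135 and 95.6 CPM in mitotic cells, against 214, 185 and 221 in the rest, HERPUD1 43.2, 37.8 and 12.8 against 52.1, 52.5 and 32.2, and CRELD2 29.6, 28.0 and 17.9 against 45.6, 43.9 and 53.4. Each of these 3 was lowest relative to the rest in the fully resistant library, by factors of 2.31, 2.51 and 2.98. HSP90B1, the endoplasmic reticulum member of the HSP90 family, lay on the other side, with ratios of 1.44, 1.69 and 1.23. Of the immediate early and heat shock list 2, 4 and 6 genes were higher and 0, 1 and 2 lower, of 15, 14 and 15 measured. HSPA8, the constitutive cytosolic HSP70, had 439.9, 375 and 542 CPM in mitotic cells, against 358, 325 and 275 in the rest, and HSP90AA1 had ratios of 1.27, 1.51 and 1.87. HSPA8 has processed copies in the genome.

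In the remaining lists the counts were small, and the background at the same minimum was 5.78%, 13.2% and 10.4% higher and 1.39%, 2.36% and 4.04% lower. Of the p53 target list 4, 5 and 1 genes were higher and 1 lower in each library, of 18, 15 and 18 measured in the sensitive, intermediate resistant and fully resistant libraries, with MDM2 at ratios of 1.503, 1.62 and 1.47. Of the adrenergic transcription factors 3, 5 and 2 of 18 were higher and 0, 0 and 2 lower. Proneural and neural progenitor factors gave 1, 4 and 0 higher and none lower, of 10, 12 and 16. Of the ribosome biogenesis list 0, 0 and 3 of 19 were higher and 0, 1 and 0 lower. The BCL2 family had 1, 2 and 0 higher and 2, 2 and 1 lower, of 16, 15 and 13. Of the neuronal cytoskeleton list 0, 1 and 0 were higher and none lower, of 15, 14 and 14, and of the ERK output list 0, 3 and 1 were higher and none lower, of 7, 4 and 10. Fibroblast and mesenchymal markers, of which 3, 3 and 4 of 11 were measured, gave none. Of 12 neuroblastoma markers none was higher and 0, 2 and 3 were lower. Of the genes that set the resistance states apart, chosen on these libraries, 1, 2 and 0 were higher and 1, 4 and 8 lower, of 18, 22 and 23.

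The design also asks how mitotic cells of the 3 states differ from each other. In intermediate resistant over sensitive mitotic cells 370 of 5425 genes (6.82%) were at least 1.5-fold higher and 539 (9.94%) lower. In fully resistant over sensitive mitotic cells 972 of 5675 (17.1%) were higher and 760 (13.4%) lower, and in fully over intermediate resistant mitotic cells 682 of 5505 (12.4%) were higher and 431 (7.83%) lower. Most calls were also made in the rest of the same libraries: 202 of the 370 and 392 of the 539, 596 of the 972 and 549 of the 760, and 449 of the 682 and 267 of the 431. The calls in the rest were 231 higher and 528 lower, 739 and 642, and 667 and 323 for the same pairs. The pairs that hold the same library share its cells, so they are given side by side and not correlated.

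Genes of the mitotic machinery were called at shares near or below those of all genes, except for the higher ones in fully resistant over sensitive mitotic cells (21.3%). Of the 164, 14 were higher and 3 lower in intermediate resistant over sensitive mitotic cells, 35 and 9 in fully resistant over sensitive, and 10 and 6 in fully over intermediate resistant, where 8.63% and 12.3%, 17.3% and 16.3%, and 13.7% and 10.5% of all genes were higher and lower at the same minimum. Their median log2 ratios were 0.19, 0.31 and 0.14. The score limit was higher in the fully resistant library (19.1029) than in the others (10.635 and 10.6061), and the score genes were the rule. With the common limit of 10.635, chosen after the data were seen, list medians that were slightly positive in fully over intermediate resistant mitotic cells changed sign for the CDK1 list (0.10 with the library's own limit, -0.05 with the common one), the passenger list (0.24 and -0.01) and the kinesins (0.18 and -0.06). They also changed sign for the anaphase-promoting complex list (0.04 and -0.07), the cytokinesis list (0.12 and -0.04) and the tubulins (0.06 and -0.06). In fully resistant over sensitive mitotic cells the CDK1 list (0.24 and 0.20), the passenger list (0.45 and 0.25) and the kinesins (0.36 and 0.28) stayed positive. So did the anaphase-promoting complex list (0.31 and 0.24) and the cytokinesis list (0.29 and 0.05), while the tubulins changed sign (0.09 and -0.02). With each library's own limit UBE2C stood at 629, 831 and 1604 CPM in mitotic cells of the sensitive, intermediate resistant and fully resistant libraries. AURKA, a score gene, stood at 329, 405 and 704. The fully resistant levels come from cells cut at a higher score, so no difference from the other states is read from them. The sensitive and intermediate resistant limits were close, and the difference between those states was not tested.

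The genes with the largest differences between the libraries are given next for mitotic cells. They were ranked by this contrast or chosen on these libraries, whose cells include the mitotic ones. That they differ is therefore no separate finding. By ratio, the highest in fully resistant over sensitive mitotic cells included CTCFL, IGFN1, NEUROD4, PKIB, ARHGAP36 and CEBPD. CTCFL (ENSG00000124092), the testis paralog of the insulator protein CTCF, had 0.0645, 2.61 and 156 CPM in mitotic cells of the sensitive, intermediate resistant and fully resistant libraries, against 0.678, 3.51 and 123 in the rest. Its level in sensitive mitotic cells rested on 1 UMI, which gives a fully resistant over sensitive ratio of 2424 (435 to 95777). PKIB, a protein kinase A inhibitor, had 2.19, 75.2 and 354 CPM in mitotic cells against 2.01, 77.9 and 361 in the rest, and NEUROD1, a proneural factor that was higher in fully over intermediate resistant mitotic cells, 4.78, 6.13 and 132 against 4.45, 6.40 and 106. The lowest in fully resistant over sensitive mitotic cells were CAMK2N1, DOK4, COLEC11, NEU4, CYB561, RGS5, CTAG2 and PRCD. RGS5, a regulator of G protein signalling, had 2783, 2694 and 102 CPM in mitotic cells and 3079, 3107 and 157 in the rest, and was lower in fully resistant than in sensitive mitotic cells by a factor of 27.3 (26.0 to 28.6).

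In intermediate resistant over sensitive mitotic cells the highest ratios were those of ARHGAP36, CARTPT, PKIB, CRH, SST, HRK, PCSK1N and PTPRG, of which CARTPT, CRH and SST are neuropeptide genes. CARTPT had 2.19, 195 and 12.8 CPM in mitotic cells of the sensitive, intermediate resistant and fully resistant libraries, against 3.04, 308 and 31.7 in the rest, and HRK, a BH3-only killer protein, 6.39, 74.6 and 2.96 against 7.35, 90.1 and 4.34. The lowest were CTAG2, CAMK2N1, CSAG1, METRN, NEFH, SFRP1, DOK4 and KCTD12. In fully over intermediate resistant mitotic cells MGST1, CTCFL, DKK1, NEUROD4, NEUROD1 and MAGEA12 were among the highest, and PTPRG, CRH, RGS5, HRK, TG, CARTPT, EPAS1 and VSTM2L were lowest. DKK1, a secreted Wnt inhibitor, had 8.71, 2.06 and 69.8 CPM in mitotic cells and 19.4, 4.87 and 137 in the rest, and was also one of the 12 genes with the lowest mean ratio of mitotic cells over the rest. ALK (ENSG00000171094), the drug's target, had 7.81, 7.89 and 1.42 CPM in mitotic cells, against 4.97, 4.58 and 1.22 in the rest.

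**Figure D4:**
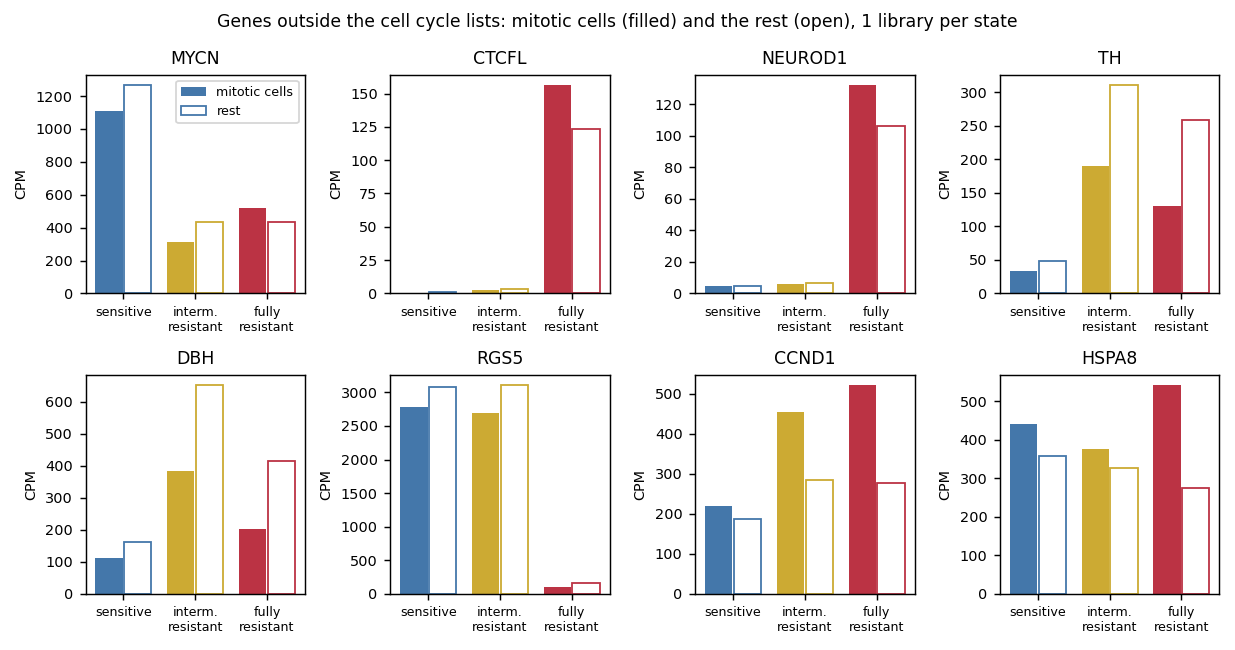
CPM (y axis) of 8 genes outside the mitotic lists in mitotic cells (filled bars) and in the rest (open bars) of the sensitive, intermediate resistant and fully resistant libraries (x axis, 1 library each, no error bars). MYCN is lower in mitotic cells than in the rest of the sensitive and intermediate resistant libraries and higher in the fully resistant one (517 against 432), and RGS5 is at 102 CPM in fully resistant mitotic cells, against 2783 in sensitive ones.

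Few genes had a library difference of another size in mitotic cells than in the rest. The ratio of the libraries in mitotic cells over their ratio in the rest was at least 1.5 for 93 genes (1.68%) and at most the inverse for 23 (0.416%) in intermediate resistant over sensitive. It was so for 53 (0.912%) and 111 (1.91%) genes in fully resistant over sensitive and for 33 (0.582%) and 144 (2.54%) in fully over intermediate resistant. HMGCS1, of cholesterol synthesis, led in intermediate resistant over sensitive, with 37.9, 84.2 and 67.4 CPM in mitotic cells of the sensitive, intermediate resistant and fully resistant libraries, against 33.4, 34.2 and 43.4 in the rest. HSPA8 was among the highest in fully over intermediate resistant, and HIST1H4C, HIST1H1C, UNC5B and GCHFR were among the lowest. For HIST1H4C the sign in fully over intermediate resistant mitotic cells turned with the common limit, at a log2 ratio of 0.065 against -1.19 with each library's own. GCHFR, the feedback regulator of GTP cyclohydrolase, had 5.61, 8.43 and 58.2 CPM in mitotic cells, against 5.10, 7.14 and 103 in the rest, and UNC5B, a netrin receptor, 148, 64.4 and 9.63 against 153, 58.2 and 19.0.

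MYCN (ENSG00000134323), the amplified oncogene of this line, ran in opposite directions. It had 1109, 315 and 517 CPM in mitotic cells of the sensitive, intermediate resistant and fully resistant libraries, against 1268, 431 and 432 in the rest. The level was lower in mitotic cells of the sensitive and intermediate resistant libraries, by factors of 1.14 (1.13 to 1.16) and 1.37 (1.33 to 1.41), and higher in those of the fully resistant library, by a factor of 1.20 (1.17 to 1.23), without reaching 1.5-fold in any. Across the score bins MYCN had 998 CPM in the top bin of the sensitive library, against 1382 in the lowest, 298 against 514 in the intermediate resistant and 462 against 491 in the fully resistant library. In the last the first bin inside the limit stood above both, at 547. The second bin, also without a UMI of a score gene, had 1528, 515 and 449 CPM in the sensitive, intermediate resistant and fully resistant libraries. With the common limit the log2 ratio in the fully resistant library was 0.24, against 0.26 with its own. Over all tested genes the median log2 ratio was 0.11, 0.19 and 0.15 in the sensitive, intermediate resistant and fully resistant libraries. The typical gene was therefore also above 0 in each library. The difference between libraries was not tested.

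A limit common to the libraries lets the share of cells past it differ between libraries, which the 15% rule does not. Each limit was taken from the sensitive library, so the sensitive share was fixed by it, apart from ties, and is no finding. After thinning to 5000 UMIs, the shares at or above the sensitive library's limit in the order sensitive, intermediate and fully resistant were 17.5% (16.5% to 18.6%, exact Clopper-Pearson), 16.2% (15.3% to 17.1%) and 23.5% (22.5% to 24.6%). Thinned scores move in steps, and the limit there was 10. Without thinning, the shares were 14.995%, 14.965% and 21.97% in the same order. At this limit the fully resistant share was the highest, and the intermediate resistant share was near the one fixed for the sensitive library. The intervals cover counting error alone, so they do not compare the states. How intermediate resistant and sensitive cells compared depended on the limit. With the limit of the top 10% of sensitive cells their order turned round, at 12.8% (11.9% to 13.6%) of intermediate resistant against 11.9% (11.04% to 12.8%) of sensitive cells. With that of the top 20% the intermediate resistant share was 19.3% (18.3% to 20.3%), against 22.5% (21.4% to 23.6%) of sensitive cells. The score uses levels of 10 genes, so more such cells and more RNA of these genes in each cell cannot be told apart, and shares of cultures grown once have no replicate error.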

How the data were processed

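Per the labels' protocols, single cells of the Kelly line were captured with Chromium Single Cell 3' v2 reagents from polyA RNA, 1 library for each of 3 resistance states. The deposited matrices hold counts (UMIs) of 32738 genes per barcode, not normalized and with empty droplets included. Per the submitters' processing notes, bcl2fastq, Cell Ranger and the hg19 build were used; versions and the annotation are not given in the sources used here. No column of per-sample values was left unused.

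Cells were barcodes with at least 5000 UMIs, 500 genes and at most 20% mitochondrially encoded UMIs. The score and the 15% limit are given above. Doublets were kept, and leaving out cells of over 2 times the median UMIs was an alternative. UMIs were summed over mitotic cells and over the rest of each library and expressed as CPM, so cells were not treated as replicates and p-values were not computed. The call was a ratio of at least 1.5 with the higher CPM at 20 or above (5 for members of lists). Intervals of ratios are exact conditional Poisson intervals (95%) and those of shares Clopper-Pearson, and both cover counting error only. No group was at 0 where a fold is given.

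The score members and the 33 gene lists were chosen with earlier results of these data known. Genes named in the text are the 12 highest and 12 lowest by mean log2 ratio of mitotic cells over the rest at a mean CPM of at least 50, the 8 highest and 8 lowest for each pair of libraries, the 6 highest and 6 lowest by difference of ratios, up to 4 members with the largest mean ratio from each list, the score genes, CDK1, TOP2A, UBE2C, MKI67 and a list of genes that set the states apart. Markers of mitotic and replicating cells are named as well. A few genes that these rules name, and 1 list of markers of other cells that was not near 0 in every library, are not reported here. Symbols are those of the matrices. Scripts ran in Python 3.11.15 with numpy 2.4.6, scipy 1.17.1, pandas 2.3.3 and matplotlib 3.10.9, with TMM factors from edgeR 4.0.16 in R 4.3.3, and were tested on simulated data.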

Additional observations from a re-analysis of the deposited data

Results flagged for a closer look

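MYCN moved in opposite directions between libraries. Its log2 ratio of mitotic cells over the rest was 0.26 in the fully resistant library, against -0.19 in the sensitive library, and likewise 0.26 in the fully resistant against -0.45 in the intermediate resistant library. It drew attention because the sign of the same contrast differed between resistance states. With 1 library per state the difference was not tested.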

How the results depend on the processing

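Each of 10 alternatives fixed with the comparisons was run, and 1 was added after the data were seen. Of the values for whole comparisons 172 stayed close, 58 moved and 1 reversed. No paired analysis was possible because each state had 1 library. Without mitochondrially encoded and ribosomal protein genes in the CPM, 105, 251 and 347 genes were lower in mitotic cells of the sensitive, intermediate resistant and fully resistant libraries, 1234 lower in fully resistant over sensitive and 764 in fully over intermediate resistant mitotic cells, 306 and 278 differed in their ratio of ratios in those pairs, and the ratios of the score genes were 5.83, 9.61 and 7.80. TMM scaling gave 169, 307 and 374 higher and 112, 239 and 207 lower genes and score gene ratios of 5.44, 9.19 and 7.87. At a minimum CPM of 5, 547, 1241 and 981 genes were higher and 132, 222 and 383 lower in mitotic cells. The same minimum gave 839 higher and 1196 lower in intermediate resistant over sensitive, 1714 and 1612 in fully resistant over sensitive and 1340 and 1020 in fully over intermediate resistant mitotic cells, with 347, 573 and 581 differing in their ratio of ratios. The score gene ratios were 6.00, 9.70 and 7.18 for the top 10%, 6.36, 11.3 and 10.1 for the top 20%, 5.67, 10.04 and 8.21 with thinned scores, 5.52, 9.79 and 7.89 with halved UMIs and 6.85, 11.1 and 9.06 without cells of over 2 times the median UMIs, where the UMI ratio in the sensitive library was 1.10. With the common limit that ratio was 10.6 in the fully resistant library. The share of cells past a common limit was 12.8% for intermediate and 19.4% for fully resistant cells with the top 10% limit, which reversed the order of intermediate resistant against sensitive cells (11.9%). It was 19.3% and 27.2% with the top 20% limit (sensitive 22.5%), 14.2% and 21.5% with halved UMIs and 15.2% and 22.4% with a log score. The common limit also reversed HIST1H4C in fully resistant over sensitive (log2 0.54) and over intermediate resistant mitotic cells (0.065). The cause of these shifts was not tested. Depth limits genes under a CPM of 5, and 1 library per state leaves the spread between cultures unknown.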
